A study of Mus musculus with 2 samples.

Results

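Mrgpr-negative mast cells were the larger of the 2 classes of mast cell sorted from the fetal lung. They were chosen by their own UMIs (unique transcript counts), as singlet cells with at least 3 UMIs of Cma1, at least 5 UMIs of Hdc, no UMI of Mrgprb1 or Mrgprb2, at most 2 UMIs of Gzmb and at most 4 UMIs in all of 8 cell cycle genes. This rule took 1860 of 8598 singlets. They were compared with 585 Mrgpr-positive mast cells, which passed the same Cma1 and Hdc limits and held at least 1 UMI of Mrgprb1 or Mrgprb2. Another 459 cells that passed the Cma1 and Hdc limits were in neither class.

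The cells came from lungs of fetuses of wild-type mice, harvested on gestation day 18, after 9-week-old mothers drank dexamethasone (DEX, a synthetic glucocorticoid) at 1.3 µg/ml from day 12, or received the PBS control. Each litter is a pool of sibling fetuses of 1 mother, with 8 and 9 fetuses in DEX-1 and DEX-2 and 5 and 8 in PBS-1 and PBS-2. Live CD45+ lineage-negative ST2+ cells were sorted, tagged by litter with hashtag antibodies and sequenced together in 1 droplet library, so the litter is the replicate. ST2 is the receptor for IL-33 and also marks mast cells, so the sort set which mast cells could enter the data, and a litter was pooled from fetuses that could not be told apart.

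Mast cells are granule-filled tissue cells that store proteases and histamine and release them when IgE bound to its receptor is crosslinked. In the mouse, connective tissue mast cells express the chymases Cma1 and Mcpt4, the tryptases Tpsb2 and Tpsab1 and carboxypeptidase Cpa3, whereas mucosal mast cells express Mcpt1 and Mcpt2. Mrgprb2 is the receptor through which many peptides and drugs activate connective tissue mast cells without IgE, and mast cells gain it as they mature.

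Most cells of the gate held transcripts of mast cell genes, though not of each such gene. A UMI of Cpa3 was found in 99.0% of Mrgpr-negative and 99.7% of Mrgpr-positive cells, and of Tpsb2 in 97.2% and 100%. Fcer1a, the IgE-binding chain, was found in 9.30% and 25.8%. Between the classes some mast cell genes did not differ, while Mcpt4, Tpsb2, Cpa3 and Fcer1a were lower in Mrgpr-negative cells, as given below. Kit, the receptor for stem cell factor, stood at 1148 ± 126 CPM (summed UMIs scaled to the library size; SD, n = 4 litters) in Mrgpr-negative cells and at 1076 ± 100.4 CPM in Mrgpr-positive cells, a log2 fold change of 0.09 ± 0.09 (SE; edgeR adjusted p = 0.547). Ms4a2, the beta chain of the IgE receptor, was not called either, at 90.4 ± 11.0 CPM against 106 ± 23.9 CPM (adjusted p = 0.177). A UMI of Ms4a2 was found in 37.2% of Mrgpr-negative and 41.4% of Mrgpr-positive cells. Tpsab1, one of the markers given for these cells, was held by 73.3% of Mrgpr-negative and 78.5% of Mrgpr-positive cells and so marked mast cells rather than the Mrgpr-negative class. Immaturity was not measured, and the cells are therefore named by their rule.

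The limits were sharp for some genes and soft for others. Beside the 1860 Mrgpr-negative cells, 212 cells that met every other limit held exactly 1 Mrgprb1 or Mrgprb2 UMI. Of the members, 21 lay at 3 Cma1 UMIs against 30 otherwise like cells at 2, and 8 lay at 5 Hdc UMIs against 7 at 4. Among the comparison cells, 218 held 1 and 87 held 2 Mrgpr UMIs, so that 52.1% of that class rested on 1 or 2 molecules, while 280 held at least 3. Mrgprb2 was found in 94.9% of them and Mrgprb1 in 31.6%. A median member held 118 Cma1 and 61 Hdc UMIs, against 204 and 64 in a comparison cell. Median depth was 6837 UMIs and 2399 genes per member and 5748 UMIs and 2048 genes per comparison cell, so the Mrgpr-negative class was the deeper of the 2.

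Among the connective tissue and mucosal proteases, neighbouring genes of 1 cluster on chromosome 14 moved in opposite directions. Mcpt2 lies at chr14:56042041-56044642 on the plus strand, between Mcpt1 (chr14:56017971-56020384, plus strand) and Mcpt4 (chr14:56059629-56062313, minus strand), with Cma1 at chr14:55941451-55944675 (GRCm38). The 250 bases before the starts of Mcpt1 and Mcpt4 are shown, because these genes moved apart and yet their windows are alike. Capitals mark a motif of the GATA factors, TGATAA. This motif, or the form that begins with A in place of T, stood on either strand in 5452 of 32851 windows of this length, or 16.6%.
Mcpt1, chr14:56017714-56017963, plus strand: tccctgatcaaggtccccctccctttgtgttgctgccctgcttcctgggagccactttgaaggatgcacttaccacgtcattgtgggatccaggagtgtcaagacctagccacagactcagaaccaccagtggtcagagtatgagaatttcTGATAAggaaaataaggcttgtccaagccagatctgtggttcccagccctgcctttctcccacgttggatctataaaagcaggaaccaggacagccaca
Mcpt4, chr14:56062311-56062560, minus strand: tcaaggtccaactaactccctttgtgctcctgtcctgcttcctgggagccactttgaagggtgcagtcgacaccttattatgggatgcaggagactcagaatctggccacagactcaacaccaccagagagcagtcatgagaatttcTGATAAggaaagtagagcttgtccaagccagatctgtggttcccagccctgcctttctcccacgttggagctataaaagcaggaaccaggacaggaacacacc
The longest run shared by both windows is 53 bases. The motif starts 99 bases before the start in Mcpt1 and 103 bases before it in Mcpt4, so the letters searched for do not separate the genes. The RefSeq tables gave a window for 5 of the genes looked up, and Cma1 held no such motif while Cpa3 and Fcer1a held 1 each. H19, Mcpt2, Tpsb2 and Tpsab1 had no entry.

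The markers given for these cells describe how the class was recognised, and no p-value is given for them. Mcpt2, a mucosal chymase, stood at 1046, 1154, 836 and 1436 CPM in the Mrgpr-negative cells of DEX-1, DEX-2, PBS-1 and PBS-2. In Mrgpr-positive cells it stood at 42.2, 210, 241 and 132 CPM. The classes did not overlap, and the log2 fold change was 2.85 ± 0.28 (SE). Mcpt1 was less even, at 316, 27.5, 154 and 87.6 CPM against 1.57, 1.60, 91.7 and 8.59 CPM. Each litter had the higher level in the Mrgpr-negative cells, but the classes overlapped across litters, through the 91.7 CPM of the PBS-1 comparison cells. The comparison cell with most Mcpt1 held 94 of that class's 111 UMIs. The DEX-1 and DEX-2 values of comparison cells lay below 3 counts, which stand at 4.69 and 2.40 CPM there.

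H19, an imprinted non-coding RNA, lies at chr7:142575529-142578143 on the minus strand, near Igf2 (chr7:142650766-142666816, minus strand), which encodes a fetal growth factor. H19 stood at 691, 1073, 783 and 899 CPM in Mrgpr-negative cells and at 113, 417, 242 and 242 CPM in Mrgpr-positive cells. Igf2 stood at 208, 409, 278 and 352 CPM and at 97.0, 125, 126 and 84.2 CPM. Neither gene's classes overlapped, with log2 fold changes of 1.82 ± 0.14 and 1.53 ± 0.14. Tpsab1 stood at 607, 1278, 701 and 823 CPM in Mrgpr-negative and at 862, 1110, 940 and 884 CPM in Mrgpr-positive cells. It was lower in 3 litters and higher in DEX-2. Cma1, which the rule used, stood at 18511 ± 1242 CPM in Mrgpr-negative and 34283 ± 4843 CPM in Mrgpr-positive cells. Of these genes, Mcpt2, Mcpt1, H19, Igf2 and Tpsab1 are plotted by litter together with 7 other genes described here.

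**Figure D1:**
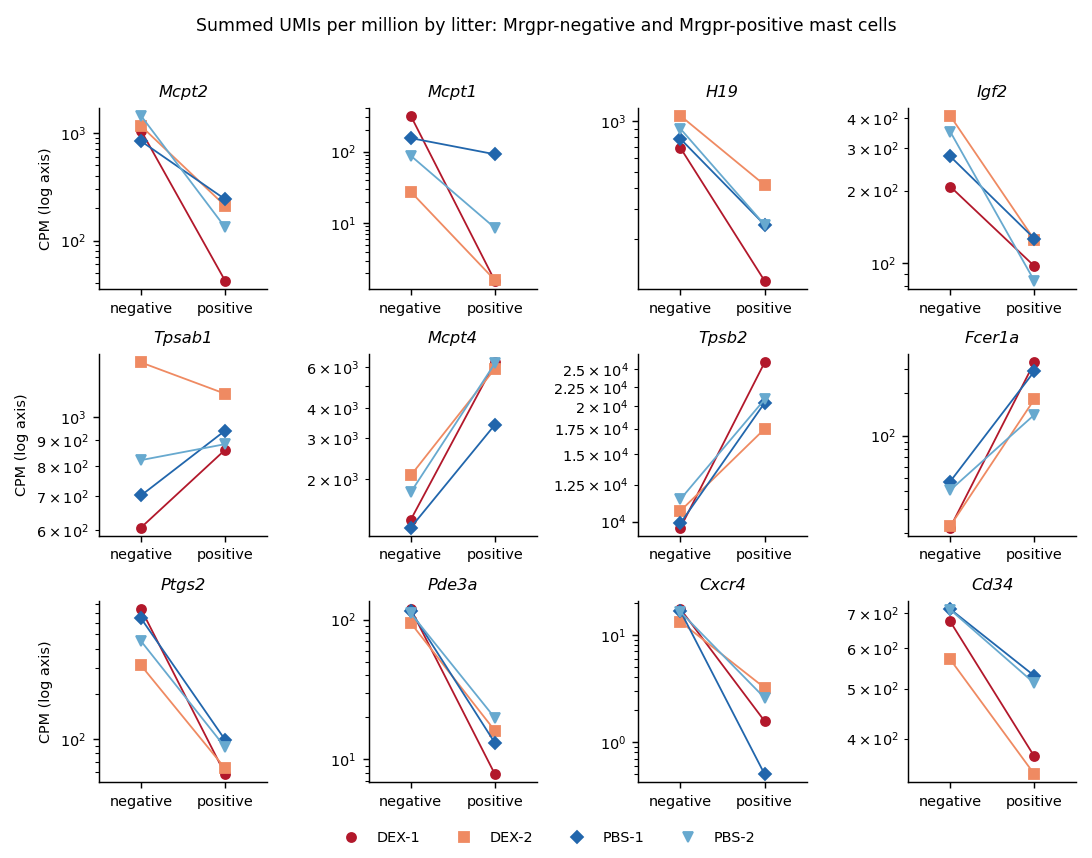
CPM on a log axis for 12 genes in the Mrgpr-negative and Mrgpr-positive mast cells of the 4 litters, with lines joining the classes of a litter. Mcpt2, H19, Igf2, Ptgs2, Pde3a, Cxcr4 and Cd34 were higher in the Mrgpr-negative cells of all 4 litters, and Mcpt4, Tpsb2 and Fcer1a were lower. A value of 0, that of Cxcr4 in PBS-1 positive cells, is drawn at 0.5 CPM.

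Of 7 connective tissue protease genes tested outside the rule, 4 were lower, 1 was higher and 2 were not called. Mcpt4 stood at 1341, 2072, 1242 and 1757 CPM in Mrgpr-negative cells against 6280, 5910, 3408 and 6226 CPM (log2 fold change -1.75 ± 0.11 (SE), edgeR adjusted p = 4.49e-07). Tpsb2, the main tryptase, stood at 9650, 10671, 9910 and 11447 CPM against 26045, 17466, 20425 and 20856 CPM (-1.01 ± 0.09, adjusted p = 1.56e-05). Both genes had every Mrgpr-negative value below every Mrgpr-positive value. Cpa3, the mast cell carboxypeptidase, fell by 0.70 on the log2 scale, from 12207 ± 1707 to 7460 ± 375 CPM (adjusted p = 0.000145). Ctsg was called higher (0.71, adjusted p = 0.00799), a call that did not hold in 4 of the alternative settings. Cma2 was called lower (-0.55, adjusted p = 0.0205), a call that did not hold in 8, among them leaving out DEX-1 (adjusted p = 0.0714), PBS-1 (0.0713) or PBS-2 (0.0505). Mcpt1, Mcpt2 and Mcpt4 are near copies, so reads shared between them may have been split or dropped by the counting.

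In all, 571 of 9785 genes tested (5.84%) were higher and 651 (6.65%) lower in Mrgpr-negative cells at an adjusted p under 0.05, and 8 of the lower genes belonged to the rule. Of the 1222, 281 differed by at least 1 on the log2 scale. The median size of the change, sign ignored, was 0.62 among the called genes. The signed median of all genes was 0.0048, which is not a size and cannot be set against it. Of the called genes, 94.9% moved the same way in all 4 litters, against 32.4% of all genes tested.

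The largest falls outside the rule included a receptor of the same family and other receptor genes. Mrgprx2, which lies on chromosome 7 near Mrgprb1 and Mrgprb2, fell by 5.45 on the log2 scale, from 82.2 ± 34.5 to 1.89 ± 1.23 CPM (adjusted p = 4.02e-08). Reads of this gene family can be shared between members, so Mrgprx2 is not independent of the rule. Pilra, an inhibitory receptor, stood at 1.52 ± 0.127 CPM against 37.9 ± 21.3 CPM (-4.55, adjusted p = 1.81e-06). Gpr141b, annotated as a long non-coding RNA gene despite its receptor name, stood at 9.82 ± 2.66 against 118 ± 40.4 CPM (-3.52, adjusted p = 6.03e-08). Fcer1a, the IgE-binding chain, stood at 22.0, 22.6, 47.0 and 40.7 CPM in Mrgpr-negative cells against 333, 182, 288 and 141 CPM (-2.80 ± 0.23, adjusted p = 6.60e-06). Every positive litter lay above every negative litter. The genes named as largest changes moved the same way in all 4 litters, which leaves out Csf2 (-2.67) and Ctsj (-2.49). Also among these 10 falls were Tac1 (-3.17), Ccl2 (-3.17), Fabp2 (-2.45, adjusted p = 0.0939 without litter as a term) and Speer4d (-2.44), the last of which belongs to a family of near copies. The top 1% of comparison cells, 6 cells, held 78.7% of Tac1, 82.1% of Ccl2 and 75.1% of Fabp2 UMIs in that class, and a UMI was found in 3.42%, 2.05% and 5.81% of its cells. Pclaf (-3.29) and Rrm2 (-2.48), which act in DNA replication, were no longer called when the comparison cells were held to the members' Gzmb and cell cycle limits (adjusted p = 0.618 and 0.947).

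The largest rises included secreted and signalling molecules. Pde3a, a cyclic nucleotide phosphodiesterase, stood at 119, 94.7, 115 and 111 CPM against 7.82, 16.0, 13.1 and 19.8 CPM (2.86 ± 0.17, adjusted p = 3.96e-07). Ptgs2, the inducible cyclooxygenase, stood at 740, 310, 641 and 451 CPM against 57.9, 63.3, 98.2 and 87.6 CPM (2.70 ± 0.16, adjusted p = 3.96e-07). Ptgs2os2, a non-coding RNA gene annotated on the other strand and not overlapping Ptgs2, was also higher (2.64 ± 0.38, adjusted p = 0.000613). Il1r2, the decoy receptor for IL-1, stood at 156, 81.7, 100.1 and 76.4 CPM against 25.0, 11.2, 15.0 and 9.45 CPM (2.80 ± 0.14, adjusted p = 5.20e-08). For all 3, every Mrgpr-negative litter was above every Mrgpr-positive litter. Tnfrsf23, a decoy TNF-family receptor, rose by 3.22 ± 0.37 (adjusted p = 0.000112).

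Scgb1a1, Scgb3a2 and Cbr2 also rose (4.31, 4.24 and 2.37), but their UMIs sat in few cells. The top 1% of members, 19 cells, held 97.2% of Scgb1a1, 97.4% of Scgb3a2 and 96.4% of Cbr2 UMIs, and the share of cells with a Scgb1a1 UMI was 5.54% against 5.81%. With UMIs capped at 5 per cell and gene, a setting chosen after seeing the data, their changes were -0.09, 0.12 and -0.53, none called. These are genes of airway epithelial cells, and epithelial marker sums ranged from 5883 to 11065 CPM in members and from 2810 to 19811 CPM in comparison cells. Their part in these differences was not tested.

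Several gene groups were described, and Mrgpr-negative cells differed in parts of each. Beside the 5.84% of all genes that were higher and the 6.65% that were lower, 6 of 12 progenitor genes were higher and 2 lower, with a median change of 0.49. Cd34, a surface protein of blood progenitors, stood at 675, 570, 713 and 712 CPM against 369, 341, 529 and 512 CPM (0.62 ± 0.09, adjusted p = 0.000449). Meis1 (1.07), Car2 (1.98) and Itgb7 (0.70), the integrin subunit of mast cell progenitors, were also higher, while Myb was lower (-0.86 ± 0.14, adjusted p = 0.00152).  Of 16 integrins and homing receptors, 4 were higher and none lower, and Cxcr4, the receptor for CXCL12, showed the largest change. It stood at 17.4, 13.3, 16.6 and 16.3 CPM against 1.57, 3.20, 0 and 2.58 CPM (2.98 ± 0.43, edgeR adjusted p = 0.000577). Comparison cells held 8 Cxcr4 UMIs in all, so the size of this change and its rank rest on few counts.

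Among 27 lineage transcription factors, 6 were higher and 3 lower, with Cebpb, a factor of myeloid cells, at 0.76 ± 0.06 (adjusted p = 8.28e-06) and Meis2 at -0.82 ± 0.11 (adjusted p = 0.000451). Of 19 imprinted growth genes, 4 were higher and 1 lower with a median of -0.07. The 4 include H19 and Igf2, markers given for these cells, so this count is not independent of how the class was recognised. Zrsr1 was higher (1.25 ± 0.23, adjusted p = 0.00347). Mest, a gene of fetal tissue, was lower, at 57.9 ± 24.0 against 114 ± 45.5 CPM (adjusted p = 0.00124), a call that did not hold in 3 settings. Its UMIs sat in few cells, the top 1% holding 62.0% in members and 64.3% in comparison cells. A Mest UMI was found in 11.5% of members and 13.2% of comparison cells.

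IgE signalling genes divided evenly, with 5 of 18 higher and 5 lower. Lyn, the kinase next to the receptor, rose by 0.86 ± 0.10 (adjusted p = 9.58e-05), while the shared gamma chain Fcer1g fell by 0.53 (adjusted p = 0.000277). Of 22 receptors and surface proteins of mature mast cells, 1 was higher and 5 lower, among them Adora3, the adenosine A3 receptor (-0.84, adjusted p = 0.000167). Of 13 histamine, serotonin and heparin granule genes outside the rule, 3 were higher and 5 lower. Slc6a4, the serotonin transporter, fell by 0.96 (adjusted p = 1.55e-05), Srgn, the granule proteoglycan core, by 0.54 (adjusted p = 0.000156), and Maob, a monoamine oxidase, by 0.92 (adjusted p = 0.000145).

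Of 8 eicosanoid genes tested, 4 were higher, 1 was lower and 3 were not called. The higher genes were Ptgs2, Ptgs1 (0.81), Pla2g4a (1.33), which frees arachidonic acid, and Alox5ap (0.79). Hpgd, which inactivates prostaglandins, was lower, at 13.6, 12.3, 35.9 and 33.8 CPM against 43.8, 28.8, 94.5 and 73.9 CPM (-1.33 ± 0.14, adjusted p = 5.19e-05). The classes overlapped across litters, but each litter was lower in Mrgpr-negative cells. Without litter as a term the adjusted p was 0.0519. Alox5ap lost its call with UMIs capped at 5 (edgeR adjusted p = 0.883). A median member held 15 Alox5ap UMIs and a median comparison cell 7. The cap thus cut most cells of both classes, so it cannot show whether the difference rests on few cells.

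Cytokine genes divided, with 6 of 19 higher and 8 lower. Tnf stood at 105, 124, 150.0 and 134 CPM against 437, 416, 606 and 342 CPM (-1.79 ± 0.11, adjusted p = 5.01e-07), and Il13, a type 2 cytokine, at 41.3, 58.9, 50.5 and 60.5 CPM against 106, 138, 208 and 146 CPM (-1.48 ± 0.13, adjusted p = 1.20e-05). Both were lower without overlap. Il1b (2.26), Osm (1.10), Vegfa (1.31) and the chemokine Ccl9 (2.06) were higher, the calls for Il1b and Ccl9 being lost with DESeq2 (adjusted p = 0.0718 and 0.0808). Immediate early genes were lower in 11 of 20 and higher in 2, with Egr2 at -2.21 ± 0.19 (adjusted p = 1.07e-05). As these genes respond to tissue dissociation, their summed level is given, which was 22910 to 26221 CPM in members and 24764 to 31170 CPM in comparison cells. Its part in these differences was not tested. Of 19 glucocorticoid receptor genes and targets, 9 were higher and 3 lower. Nr3c1, the receptor itself, rose by 0.63 ± 0.09 (adjusted p = 0.000627), Fkbp5 by 0.76 ± 0.15 (adjusted p = 0.00419) and Tgm2 by 1.96 ± 0.15 (adjusted p = 2.97e-06), while the metallothionein Mt1 fell by 0.68 (adjusted p = 0.000193). Tsc22d3 was not called (-0.08, adjusted p = 0.615). The plot of gene groups shows each gene as a point.

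**Figure D2:**
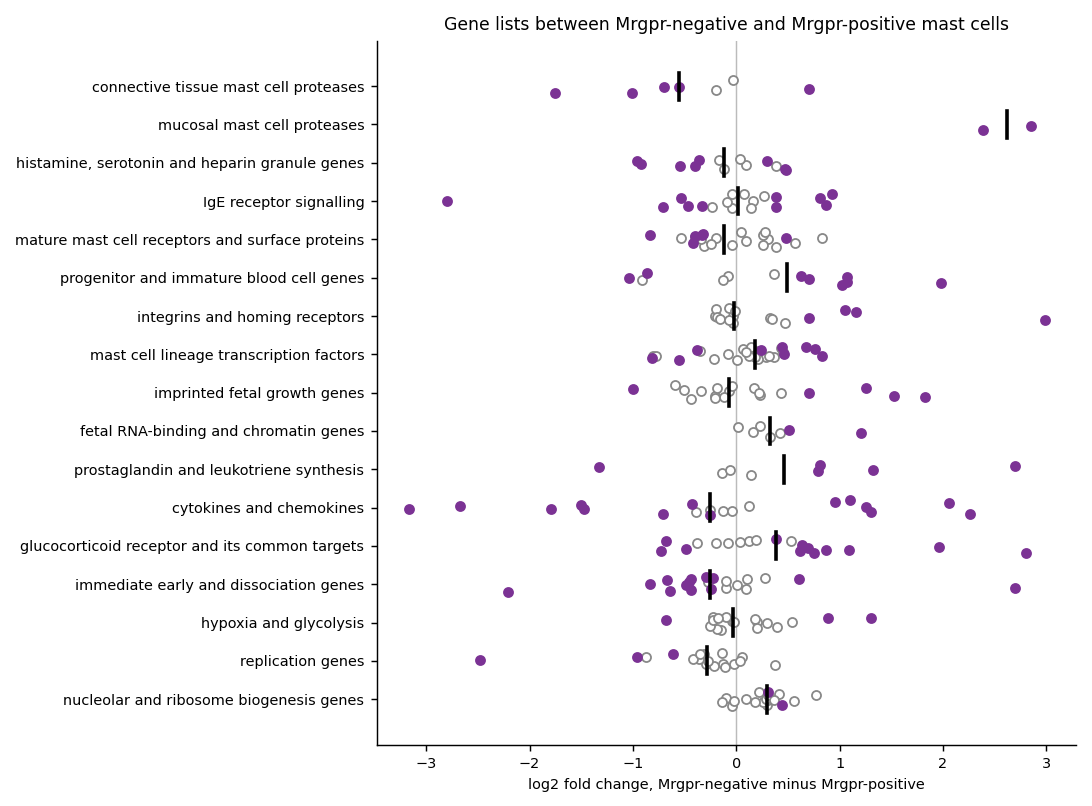
Log2 fold change, Mrgpr-negative minus Mrgpr-positive, of the genes of 17 lists outside the rule, one point per gene, purple where edgeR's adjusted p was under 0.05, with a black bar at the list's median. The connective tissue proteases have a median of -0.55 and the progenitor genes of 0.49.

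Levels also varied with the number of Mrgpr UMIs in a cell, a description with no test because the bins come from the rule. Mcpt2 stood at 1146 ± 258 CPM (SD over 4 litters) in cells without a Mrgprb1 or Mrgprb2 UMI, 315 ± 243 CPM with 1 or 2, 42.7 ± 5.54 CPM with 3 to 9 and 60.4 ± 63.6 CPM with 10 or more. H19 stood at 884 ± 172, 323 ± 57.4, 226 ± 166 and 166 ± 129 CPM in the same bins, and Ptgs2 at 548 ± 194, 98.5 ± 56.1, 94.9 ± 40.7 and 8.77 ± 4.78 CPM. In CPM, Mcpt2 and Ptgs2 differed most between cells without a UMI and those with 1 or 2, while by ratio the larger steps came in the higher bins. H19 did not separate the 3 upper bins beyond the spread between litters. Mcpt4 rose from 1644 ± 398 through 1811 ± 568 and 4713 ± 2918 to 10910 ± 2473 CPM, and Tnf from 132 ± 20.4 through 197 ± 30.1 and 385 ± 81.0 to 833 ± 436 CPM. Tpsab1 stayed between 776 ± 183 and 1105 ± 272 CPM, with overlapping spreads.

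**Figure D3:**
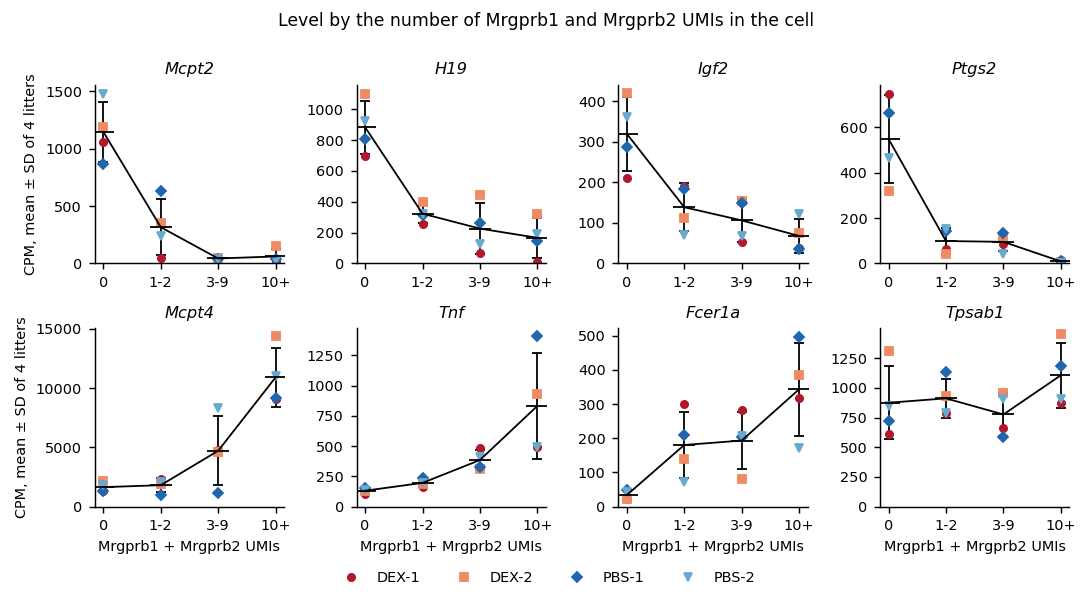
CPM (points for litters, bars for mean ± SD of 4 litters) against the number of Mrgprb1 plus Mrgprb2 UMIs per cell, in 1860, 305, 181 and 99 cells. Mcpt2, H19, Igf2 and Ptgs2 fall from the left, and Mcpt4, Tnf and Fcer1a rise.

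The members differed among themselves in which of these genes they held. At least 1 UMI of H19 was found in 52.0% of members, of Mcpt2 in 42.1%, of Igf2 in 31.7% and of Mcpt1 in 7.80%, against 28.0%, 22.6%, 20.9% and 1.88% of comparison cells. After each cell was thinned to 4000 UMIs, which left 1376 members and 402 comparison cells, the shares were 52.3%, 38.0%, 28.8% and 6.40% against 27.9%, 16.4%, 17.9% and 0.746%. ILC2-gated cells were chosen to hold Gata3 and Il7r UMIs and few UMIs of Cma1 and Hdc. In these 1520 cells the Mcpt2 share was 0.987% at a median of 8282 UMIs, and the H19 share was 3.36%. The gate left out cells with more mast cell RNA, so the Mcpt2 share is partly set by it. Mesenchymal-gated cells held H19 in 44.2%, so H19 is not specific to mast cells. Ptgs2 was found in 57.5% of ILC2-gated and 74.5% of basophil-gated cells.

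Mcpt2 was uneven across cells. The 229 members (12.3%) with at least 10 UMIs held 90.9% of Mcpt2 UMIs, and the 33 cells with at least 100 held 53.7%, of which 11, 8, 3 and 11 came from DEX-1, DEX-2, PBS-1 and PBS-2. Of Mcpt1 UMIs 83.0% sat in the top 1% of cells, of Igf2 UMIs 24.0% and of H19 UMIs 11.9%. Most members holding Mcpt1 also held Mcpt2 (80.7%, or 14.9% of the Mcpt2 cells). In 1860 members, the gene most like Mcpt2 in log-scaled counts was Mcpt1 (Pearson's r = 0.34), then Cd52 (0.33) and Alox5ap (0.32). Mcpt4 (0.28) and Plac8 (0.27) came next. Within members Mcpt2 and Mcpt4 thus went together, with r from 0.23 to 0.33 in the 4 litters, although they differed in opposite directions between the classes. H19 was most like Igf2 (r = 0.62), with 84.2% of Igf2 cells also holding H19. These cells share a library, and depth affects such correlations.

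**Figure D4:**
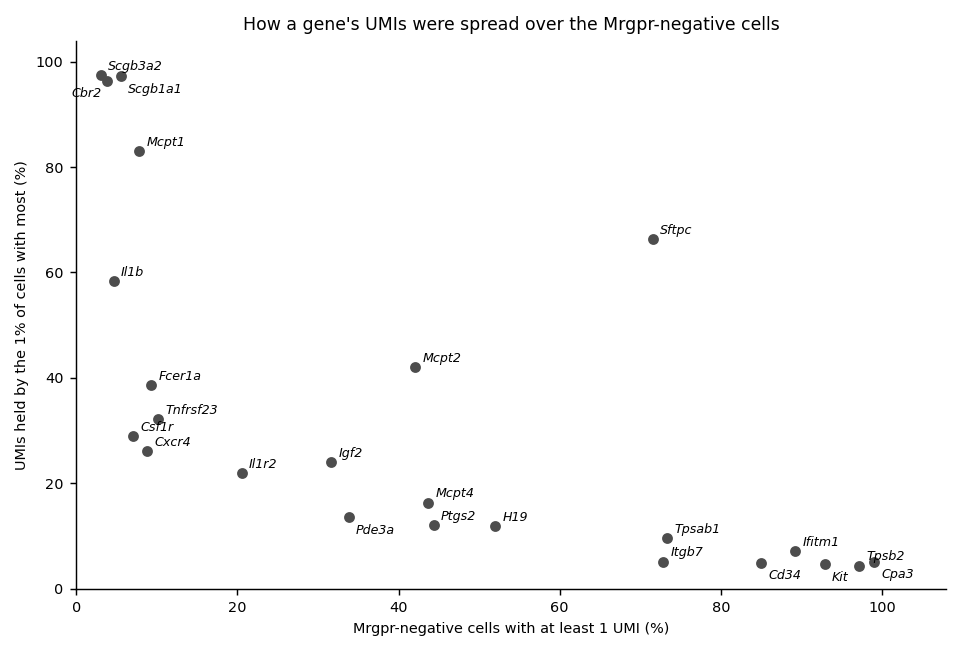
Share of Mrgpr-negative cells with at least 1 UMI of a gene (x axis, %) against the share of the gene's UMIs in the 1% of cells with most (y axis, %). Scgb1a1, Scgb3a2 and Cbr2 lie above 90% at under 10% of cells, and Cpa3, Tpsb2 and Kit lie at the lower right.

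Of RNA from other cells, 60 members and 22 comparison cells held at least 20 Sftpc UMIs, and the 60 held 96.9% of the members' Sftpc UMIs. A Sftpc UMI was found in 71.6% of members and 78.4% of ILC2-gated cells. Basophil markers summed to 1575 to 2056 CPM in members and 1906 to 2528 CPM in comparison cells, ILC2 markers to 185 to 228 and 128 to 215 CPM, and macrophage markers to 89.1 to 300.1 and 59.8 to 245 CPM. Prg2, Epx and Ear6 of eosinophils, Cd8a, Ncr1, Klrb1c and Eomes of T and NK cells and Ltf of neutrophils had no UMI in any member, which allows a share of members with a UMI of up to 0.161% and sets no limit on the share that expresses the gene. A change of cell numbers cannot be told apart from one of RNA per cell in summed counts.

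Mrgpr-negative cells formed 82.3% (Wilson 95% interval 79.0 to 85.2) of the mast cells of both classes in DEX-1, 74.1% (70.5 to 77.3) in DEX-2, 74.0% (70.2 to 77.5) in PBS-1 and 74.3% (70.8 to 77.4) in PBS-2. The DEX mean was 78.2 ± 5.84% (SD, n = 2) and the PBS mean 74.1 ± 0.178%, a difference of 4.07 percentage points (2-sided exact permutation test p = 0.667). With 2 litters against 2 the test can give no p below 0.333. Without DEX-1 the difference was -0.0575 points. As a share of all singlets, which the sort sets, they made up 27.7%, 20.7%, 21.2% and 18.8% (difference 4.21 points, exact permutation p = 0.667). Intervals cover counting error only.

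No gene was called between the DEX and PBS litters in the Mrgpr-negative cells. Of 10974 genes tested with edgeR, 0 passed (0%), 589 had an unadjusted p under 0.05, and DESeq2 called 5. With litter number as a term edgeR called 64. Nr3c1 stood at 382 and 345 CPM in the DEX litters and at 263 and 330 CPM in the PBS litters (0.29 ± 0.13, adjusted p = 0.938). Its target Fkbp5 stood at 57.4 and 46.5 against 63.6 and 60.6 CPM (-0.26, adjusted p = 0.980), and Tsc22d3 at 180 and 141 against 163 and 132 CPM (0.13, adjusted p = 0.999). The DEX and PBS litters overlapped for Tsc22d3 and did not for Nr3c1 and Fkbp5, whose groups lay close together. With 2 litters against 2, a gene's groups lie apart by chance alone with a probability of 0.333. Per1 differed by -0.05, Zbtb16 by -0.97 (adjusted p = 0.932) and Sgk1 by -0.46 (adjusted p = 0.775). Mcpt2, H19 and Igf2 differed by -0.06, 0.06 and -0.04, each with overlapping litters, and Mcpt1 by 0.50, with its highest value in DEX-1. Without DEX-1 the Mcpt1 difference was -2.14, and without DEX-2 it was 1.40, so its direction depended on which DEX litter was kept. Each of these fits kept only the other DEX litter. The member with most Mcpt1 held 650 of the members' 2074 UMIs of this gene.

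Some genes lay apart without passing the test. Hpgd stood at 14.0 and 12.6 CPM in DEX against 37.0 and 34.9 CPM in PBS (-1.44 ± 0.17, adjusted p = 0.246), and Fcer1a at 22.7 and 23.1 against 48.5 and 42.1 CPM (-0.98, adjusted p = 0.465). Pde7b, a phosphodiesterase, stood at 210 and 191 against 74.7 and 106 CPM (1.15, adjusted p = 0.302), and Crem, a cAMP-responsive factor, at 131 and 93.3 against 54.9 and 52.9 CPM (1.06, adjusted p = 0.465). Hpgd, Pde7b and Crem were among the 5 genes called with DESeq2, and all 4 were chosen after their values were seen.

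**Figure D5:**
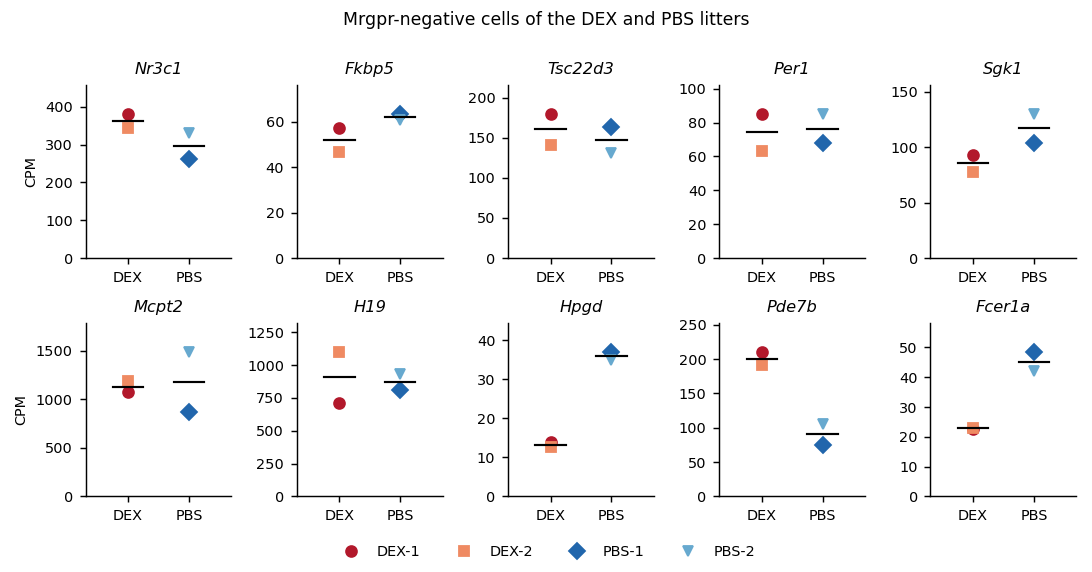
CPM (linear axes from 0) of 10 genes in the Mrgpr-negative cells of the 2 DEX and 2 PBS litters, with a bar at the group mean. Hpgd, Pde7b and Fcer1a were chosen after their values were seen, and none of the 10 passed the test.

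The DEX difference was compared between the classes. Of 10553 genes tested, 13 (0.123%) differed at an adjusted p under 0.05, and 498 had an unadjusted p under 0.05. The DEX difference in Mrgpr-negative minus that in Mrgpr-positive cells was positive for 2 of the 13 and negative for 11. This sign does not tell in which class the difference was larger in size. Among the 13 was a mast cell cytokine. Ccl1, a chemokine for CCR8, stood at 68.5 and 44.0 CPM in DEX and 40.6 and 36.1 CPM in PBS members, against 99.8 and 87.1 and 213 and 136 CPM in comparison cells (1.38 ± 0.24, adjusted p = 0.0261). Members were higher in both DEX litters and comparison cells lower. The call did not hold in 10 of 19 alternative settings, among them DESeq2 (adjusted p = 0.997) and leaving out PBS-1 (adjusted p = 0.196). The other 12 are described with the flagged results, and most of them had their UMIs in few cells.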

How the data were processed

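The authors deposited raw UMI counts per gene and hashtag from a 10x 5′ library, made with Cell Ranger 7 (7.0.0 in the file header) on mm10 according to the submitters' processing notes, and these deposited counts were used unchanged. The matrix held 10648 barcodes, 32285 genes, 4 hashtags and 119146805 gene UMIs, with no barcode repeated. Barcodes with at least 200 genes, at most 5% mitochondrial UMIs and a top hashtag of at least 10 UMIs and at least 3 times the next were kept. 10409 barcodes passed the quality limits and 8598 were singlets. Between-litter doublets were removed by the hashtag rule. Within-litter doublets were treated in alternatives only. Members and lists were chosen with earlier results of these data known. Gene UMIs were summed per litter and class (2969629 to 3969795 for members, 708656 to 1312202 for comparison cells), which puts 3 counts at 0.74 to 4.69 CPM. Sums were tested in R 4.3.3 with edgeR 4.0.16 (quasi-likelihood F-test, TMM, filterByExpr, Benjamini-Hochberg adjusted p under 0.05), with litter as a term between classes and none for DEX. CPM are after TMM scaling. The script was tested on simulated data. Alternatives included DESeq2 1.42.0, leaving out litters, depth matching, thinning and other filters. Named genes were the rule genes and markers, the 10 largest called changes in each direction outside the rule with the same direction in all 4 litters, a mean of at least 20 CPM and no unnamed models, called list genes, and 6 glucocorticoid genes. Litters are separate mothers per the labels. A legend of the study gives fewer mothers. The study tested over cells, which was not done here because the litter is the replicate.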

Additional observations from a re-analysis of the deposited data

Results flagged for a closer look

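Genes whose DEX difference differed between Mrgpr-negative and Mrgpr-positive mast cells were tested with a class by treatment term in edgeR over the 8 sums, and 13 passed. The values are log2 differences, the DEX difference in Mrgpr-negative minus that in Mrgpr-positive cells. Genes of other cell types were S100a8 (-9.82) of neutrophils, Cd79a (-9.63) and Cd74 (-3.29) of B cells and antigen-presenting cells, Hopx (-2.37), Ager (-1.44), Krt7 (-2.22) and Scgb1a1 (-2.62) of epithelium, Tagln (-4.68) of smooth muscle and Ptprb (4.01) of endothelium. Hp (-3.14), Lyz1 (-3.02) and Ctsj (-3.85) made up the rest with Ccl1 (1.38). In 12 of the 13, all but Ccl1 (48.8%), the top 1% of members, 19 cells, held at least 73.8% of the members' UMIs, and their part in these differences was not tested. Leaving out 1 litter ended several calls. The S100a8 call was lost without DEX-2 or PBS-1, the Cd79a call without DEX-2 or PBS-2, the Hp, Tagln and Ccl1 calls without PBS-1, the Ptprb call without PBS-2 and the Scgb1a1 call without DEX-2 or PBS-1. In PBS-1, S100a8 stood at 132 CPM in members, against 0.544, 0.978 and 0 CPM in DEX-1, DEX-2 and PBS-2.

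Outside the main measurement, 130 barcodes met the expression rule but not the hashtag rule, because the next hashtag was too high. They were not counted among the members.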

How the results depend on the processing

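Between the classes the 1222 calls became 679 with DESeq2, 666 with depth-matched cells and 811 without possible doublets. Leaving out a litter gave 639 to 1274 calls, the lowest counts being 639 (PBS-2 left out) and 711 (DEX-2 left out). Without litter as a term (no replicate block) there were 836, of which 824 were among the 1222. Of 131 called genes named, 44 lost their call without some litter. For DEX the 0 calls became 5 with DESeq2, 213 without a filter on low genes, 64 with litter number as a replicate block, 1 with depth-matched cells and 12 to 107 without a litter. Same-numbered litters correlated by 0.129 and crossed ones by -0.129, and a number only names a mother. With a litter left out, the lone litter of its group is assumed to vary like the other group. The 13 calls for the difference of DEX differences became 7 with DESeq2, 79 without the filter, 2 with the stricter hashtag rule, 5 with the same Gzmb and cell cycle limits, 2 with depth-matched cells, 3 without the deepest cells, 3 without possible doublets, 1 with thinning and 18 to 94 without a litter. Of the alternatives chosen after seeing the data, leaving out cells of at least 20 Sftpc UMIs gave 4 and capping at 5 UMIs gave 1. These are totals, and of the 13 the depth-matched cells kept 0, those without the Sftpc cells 2 and the fits without a litter 8 to 13. The difference in mast cell share ranged from -0.0575 (DEX-1 left out) to 8.21 points (DEX-2 left out).

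Of the calls between classes, 8 were called in the opposite direction with capped UMIs, all of them ribosomal protein genes (Rpl10a, Rpl13, Rpl18, Rplp0, Rplp1, Rps18, Rps9 and Rpsa, from -0.19 to -0.15). Among the named genes, changes that reversed without being called were Scgb1a1 (-0.094), Cbr2 (-0.53) and Krt19 (-0.045) with capped UMIs and Tyms (0.11) with the same limits. The Mcpt1 DEX difference was -2.14 without DEX-1 and 1.40 without DEX-2, each fit keeping only the other DEX litter. Reversed differences of DEX differences were S100a8 (from -15.1 with PBS-2 left out to 1.40 with PBS-1 left out), Hopx (0.76) and Ager (1.30) without the Sftpc cells, Ager (0.28) with capping, Hp (2.27), Lyz1 (0.20) and Scgb1a1 (3.77) with depth-matched cells, Hp (1.05) and Cd74 (0.25) with thinning, Lyz1 (0.43) and Cd74 (0.15) without possible doublets, and Scgb1a1 (1.78) without the deepest cells. The cause of these reversals was not tested.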

Other observations

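Markers of basophils divided between the classes. Il18rap, a subunit of the IL-18 receptor, was higher in Mrgpr-negative cells, at 43.5 ± 12.0 CPM against 11.9 ± 2.35 CPM (SD, n = 4 litters, log2 fold change 1.84 ± 0.18 (SE), edgeR adjusted p = 2.11e-05), and so was the basophil protease Mcpt8 (1.45 ± 0.18, adjusted p = 0.000223), which lost its call with depth-matched cells (adjusted p = 0.217). Cd200r3, an activating receptor of basophils and mast cells, was lower (-0.62 ± 0.10, adjusted p = 0.00114). Of 8 basophil genes 3 were higher and 2 lower.

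Other lists are given beside the share of all genes called (5.84% higher, 6.65% lower). Of 18 hypoxia and glycolysis genes 2 were higher and 1 lower, with Pgam1, a glycolytic enzyme, at -0.68 ± 0.11 (adjusted p = 0.00130). Of 18 nucleolar genes 2 were higher, and of 18 replication genes outside the rule 3 were lower. The rule limits cell cycle UMIs in members alone, and with the same limits on the comparison cells Rrm2 was not called (adjusted p = 0.947) and Tyms stood at 0.11. Endothelial genes were lower in 4 of 7, among them Emcn (-1.83 ± 0.28, adjusted p = 0.000769), and their summed level was 81.2 to 203 CPM in members and 33.9 to 517 CPM in comparison cells. Emcn was higher in the members of DEX-1 (5.71 against 3.13 CPM). The top 1% of comparison cells, 6 cells, held 76.6% of Emcn, 83.3% of Cdh5 and 72.0% of Ramp2 UMIs, and the share of cells with an Emcn UMI was 2.63% in members and 3.76% in comparison cells. The Cdh5 and Ramp2 calls were lost without DEX-2 (adjusted p = 0.114 and 0.0986) or PBS-2 (0.0724 and 0.0847), that for Cdh5 also without PBS-1 (0.131), and the Egfl7 call without DEX-2 (0.230) or PBS-2 (0.335).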
